A study of Caenorhabditis elegans with 20 samples.

Results

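The 60 genes described here were chosen by their L4 counts as those whose mRNA was most steadily higher in Caenorhabditis elegans L4 larvae that overexpressed elt-2 than in transgenic control larvae. They were 60 of 7373 genes that had a mean of at least 20 counts over the 10 L4 libraries, in a table of 21383 genes. For each letter from A to E, which the sample titles give once in every group, the value of log2(CPM + 0.5) in the control library was subtracted from that in the overexpressing library, where CPM is the counts of a gene per 1e+06 counts of its library. Genes were ranked by the smallest of the 5 differences and the 60 highest were taken, leaving out elt-2 and unc-119, which the transgenes carry. The L4 strain difference of these genes was therefore fixed by the choice, and it is given below as a description without a test. The same strains at Day 13 of adulthood were not used in the choice.

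Messenger RNA of whole worms was measured by 3SEQ, a method that reads only the 3′ end of each polyadenylated transcript, in 20 libraries that form 4 groups of 5. Control worms (strain SD1965 in the labels) carried rde-1(ne300) and unc-119(ed3) with an extrachromosomal array of an unc-119(+) plasmid. Overexpressing worms (strain SD1963 in the labels) had the same mutations and an array of multiple copies of a plasmid with the upstream region and coding region of elt-2 fused to GFP, the unc-54 3′UTR and unc-119(+). Each strain was collected at the L4 stage and at Day 13 of adulthood, as populations of about 10000 animals. The libraries of each strain came from 1 transgenic line, arrays of this kind can be lost from cells as they divide, and the rde-1 mutation, which impairs RNA interference, was shared by every group. The label text on growth names N2 animals for the L4 collection, whereas the strain labels and the methods of the study give the transgenic strains. The methods name the control strain SD1965 also among the overexpressing lines, and the labels were followed. Worms kept to Day 13 were placed on FUDR, which blocks the production of progeny, from Day 1 of adulthood and washed repeatedly over mesh, with dead animals removed, and L4 larvae were not, so age and handling cannot be told apart. elt-2 counts were 17 to 59 in control L4 libraries against 76 to 225 in overexpressing L4 libraries. At Day 13 they were 24 to 38 against 139 to 181. The array copy of elt-2 ends in the unc-54 3′UTR and 3SEQ reads 3′ ends, so some of its reads may be counted elsewhere. How far the elt-2 counts cover the array copy is not known. Scaled to library totals, elt-2 ran over 0.437 to 2.95 CPM in control and 2.78 to 10.2 CPM in overexpressing L4 libraries, with overlap. At Day 13 it ran over 0.827 to 2.72 CPM and 6.66 to 12.4 CPM, without overlap. unc-119, which both arrays carry, held 0 to 9 counts in control and 167 to 547 counts in overexpressing L4 libraries. At Day 13 its counts were 2 to 32 and 86 to 267.

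ELT-2 is a GATA transcription factor that drives genes of the intestine, the tissue that digests food, stores fat and makes yolk. Cuticle collagens are secreted by the hypodermis and form the outer cuticle, which is rebuilt at each molt. In hermaphrodites the germ line makes sperm late in larval life and then turns to oocytes, and the major sperm proteins build the motile cytoskeleton of the sperm and also signal to the oocyte. Vitellogenins are yolk proteins made in the adult intestine and taken up by oocytes. Because RNA came from whole animals, fewer cells of a type and less RNA per cell cannot be told apart in any value below.

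By name, 6 of the 60 genes encode cuticle collagens (col-179, col-178, col-8, col-106, col-184 and col-101) and 7 belong to families named for sperm (msp-78, msp-40, msp-3, ssq-1, ssq-3, ssq-4 and ssp-9). These 7 were summed together with nspd-3, of a nematode-specific peptide family, and the 8 are called the sperm and nspd genes below. The other 46 include the yolk gene vit-4, the uterine lumen gene ule-4 and genes of protein transport, protein turnover and DNA repair such as copd-1, rpt-4 and msh-2, and 30 of the 60 have a sequence name only. All 60 are protein coding in the WBcel235 annotation. No gene of the intestine marker list used below is among the 60, and of all marker lists only msp-3, on the sperm list, is.

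The libraries held 10749795 to 42317549 counts, and a floor of 3 counts corresponded to 0.0709 to 0.279 CPM depending on the library. These limits cover counting error only, since the reads carry no molecular identifiers. The 3% most highly counted genes held 90.8% to 96.7% of the counts of a library, and the group median of the middle gene of the 60 was 2.67 CPM in control and 11.9 CPM in overexpressing L4 libraries. Values of the 5 libraries of a group are given in the order A, B, C, D and E. Scaling by TMM in place of library totals moved the median difference of all genes between strains at L4 from 0.27 to 0.044, a shift of all genes that the L4 differences below include.

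The smallest of the 5 differences on the log2 scale ran from 2.08 for col-179 at rank 1 to 0.82 for col-101 at rank 60. Just inside the limit were Y47G6A.26 at 0.829, C34F11.2 at 0.824 and col-101 at 0.817, and just outside it were acox-1.2 at 0.810, spex-3 at 0.808 and spcs-1 at 0.806, so that rank 60 marks no gap. The median of the 5 differences was 0.88 to 3.44 among the 60 genes, with a median of 1.48, against a median of 0.24 over all 7373 genes. All 60 were higher in the overexpressing library of all 5 letters because they were chosen so, as were 20.3% of all genes. The groups themselves overlapped for most of them: all 5 overexpressing libraries lay above all 5 control libraries for 12 of 60 genes, against 1.26% of all genes, a count the rule also favours. The ratio of the group medians ran from 1.82 to 46.5, with a median of 3.31 over the 60 genes. The log2 range among the 5 control L4 libraries had a median of 2.91 over the 60 genes and reached 11.4, so the spread within the control group was often wider than the strain difference.

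**Figure D1:**
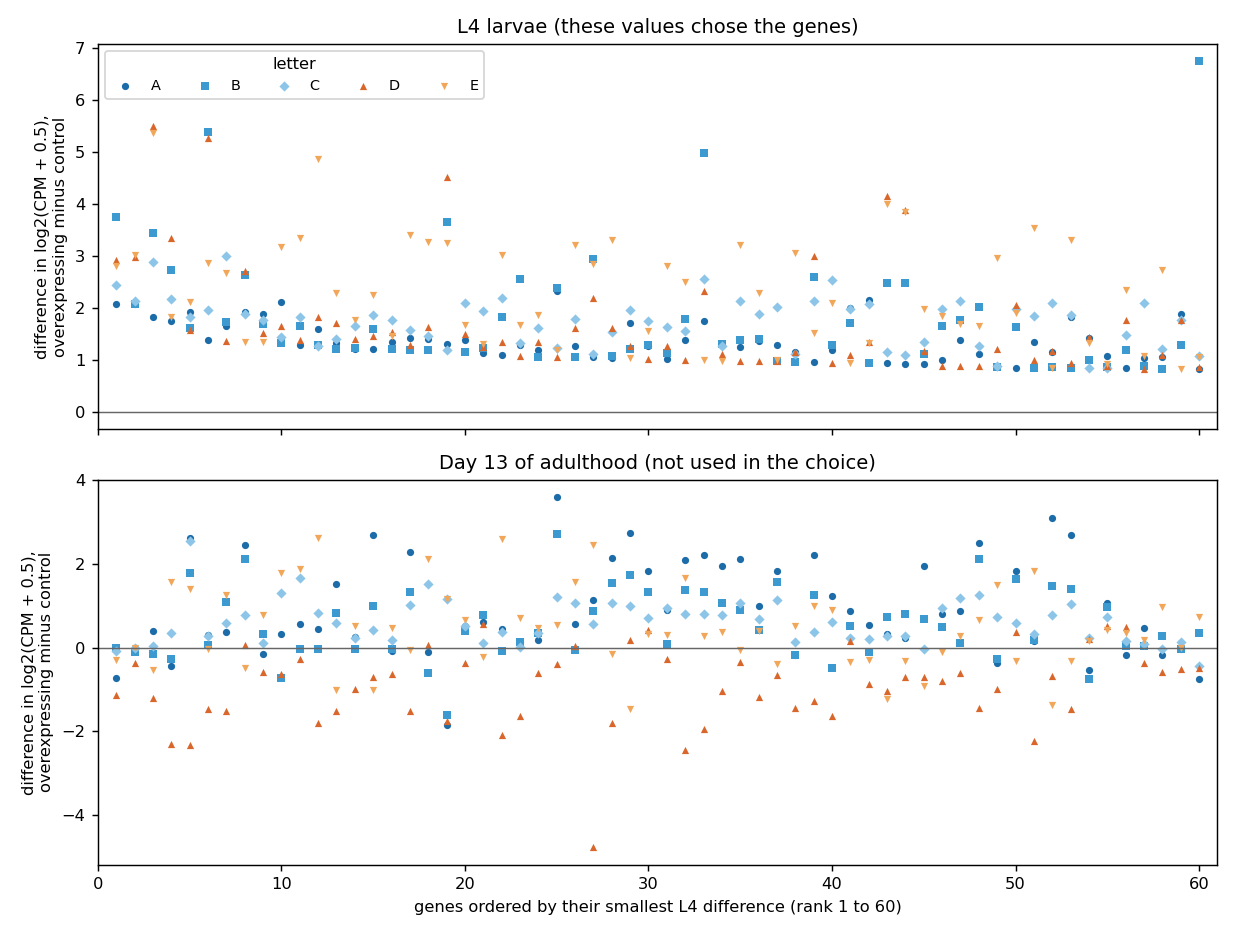
Difference in log2(CPM + 0.5) between the overexpressing and the control library of each letter, for the 60 genes in order of rank, at L4 (upper panel) and at Day 13 (lower panel). At L4 every point lies above 0 by the choice of the genes, while at Day 13 the points of letter D lie mostly below 0 and those of letter C mostly above it.

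The cuticle collagen genes included 4 of the 5 most abundant of the 60 genes and gave the 5 largest differences of any letter at L4. The summed level of the 6 genes in control L4 libraries was 10478, 4684, 8194, 25.5 and 14.96 CPM in letters A to E. In overexpressing L4 libraries it was 23350.4, 35998, 22591, 431 and 248 CPM. The overexpressing sum was 2.23 to 16.9 times that of the control library of the same letter, yet the overexpressing libraries of letters D and E lay far below the control libraries of letters A to C. Mean levels over the 10 L4 libraries were 3524 CPM for col-106, 2931 CPM for col-184, 2736 CPM for col-8 and 824 CPM for col-178, the 4 most abundant of the 60 genes, followed by ssq-1 at 699 CPM.

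col-179 (chrX:11201465-11202485, + strand), at rank 1, stood at 138, 26.2, 72.2, 1.02 and 0.216 CPM in control L4 libraries. In overexpressing L4 libraries it stood at 585, 359, 392.4, 11.0 and 4.51 CPM. Each overexpressing library lay above its control by 2.08, 3.75, 2.43, 2.92 and 2.81 on the log2 scale, although the groups overlapped. Its neighbour col-178 (chrX:11199455-11200467, + strand), 997 bases away on the same strand, stood at 699.9, 214, 289.8, 0.911 and 0.345 CPM in control and 2474, 2326, 2134, 63.2 and 34.2 CPM in overexpressing L4 libraries. Its differences of 1.82, 3.44, 2.88, 5.50 and 5.36 were largest in letters D and E, where the control libraries held under 1 CPM. col-8 (chrIII:7019583-7020600, - strand) stood at 2857, 192, 1791, 0.590 and 0.647 CPM in control and 7484, 8032, 6954, 41.3 and 7.89 CPM in overexpressing L4 libraries. Its differences of 1.39, 5.38, 1.96, 5.26 and 2.87 were largest in letters B and D, and the control library of letter B held far less than those of A and C.

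col-106 (chrIV:1459896-1460786, - strand) and col-184 (chrX:13469455-13470409, + strand) moved almost in parallel across libraries. In control L4 libraries col-106 stood at 3284, 2349.8, 3095, 5.95 and 4.27 CPM and col-184 at 2919.7, 1887, 2616, 12.7 and 8.15 CPM. In overexpressing L4 libraries col-106 stood at 6259.8, 13175, 6873, 114 and 75.2 CPM and col-184 at 5529, 10468, 5548, 194 and 123 CPM. The differences by letter were 0.93, 2.49, 1.15, 4.14 and 3.99 for col-106 and 0.92, 2.47, 1.08, 3.88 and 3.84 for col-184, smallest in letter A for both. col-101 (chrIV:325435-327020, - strand), at rank 60, stood at 578, 14.8, 328, 4.34 and 1.34 CPM in control and 1019, 1637, 689, 8.26 and 3.31 CPM in overexpressing L4 libraries, and its largest difference of 6.74 in letter B was the largest of any of the 60 genes in any letter.

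Most of the collagen family did not share this pattern. Of the 133 col genes with a mean of at least 20 counts at L4, 13 were higher and 29 lower in the overexpressing library of all 5 letters, and their median difference was -0.53. The 13 include the 6 chosen collagens, and 20.3% of all genes were higher in all 5 letters. The share of all genes lower in all 5 was not counted. The cuticle collagen genes rol-6, dpy-13 and sqt-3 of the hypodermis and cuticle marker list, named here after their values were seen, were lower in the overexpressing libraries of letters A to C and higher in that of letter D, and in letter E rol-6 and dpy-13 were lower and sqt-3 higher. Of the same list lon-3 and mlt-10 had the same signs as those genes in letters A to D, whereas dpy-7 and dpy-17 were lower in letter D. Against the pattern of letters A to C, bli-1 and noah-1 were higher in letter C, by 0.36 and 0.94, and dpy-17 was slightly higher in letter B. col-19, a collagen of the adult cuticle and also a marker, had a pattern close to that of the chosen collagens, at 5194, 2749, 4634, 1.77 and 0.992 CPM in control L4 libraries and 6462, 9760.5, 6414, 172 and 105 CPM in overexpressing L4 libraries. It was thus under 2 CPM in the control libraries of letters D and E and at 2749 CPM or more in letters A to C. The part of what col-19 marks in the collagen differences was not tested, and near-identical collagen copies may share reads, so the split between them is uncertain.

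**Figure D2:**
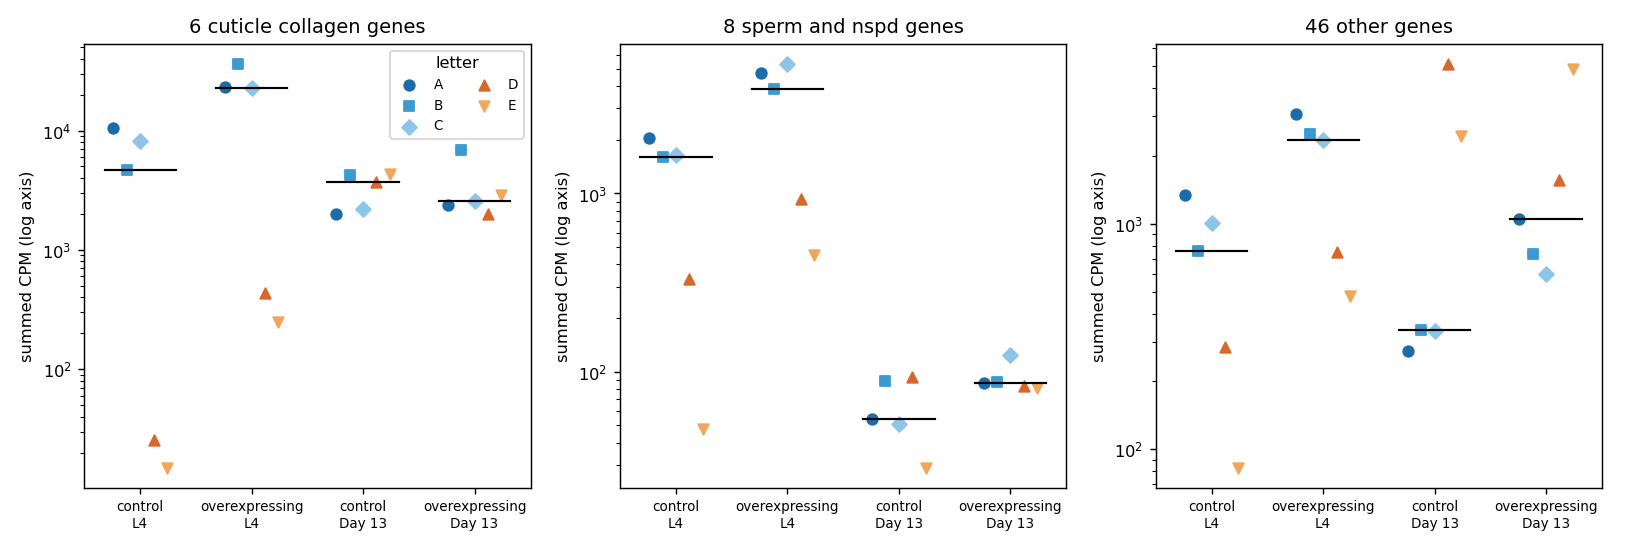
Summed CPM (log axis) of the 6 cuticle collagen genes, the 8 sperm and nspd genes and the 46 other genes in each of the 20 libraries, with bars at the group medians. At L4 the collagen sum of letters D and E lies below that of letters A to C in both strains, and at Day 13 the strains overlap in all 3 panels.

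The sperm and nspd genes were all higher at L4 in the overexpressing library of each letter, by the rule, and less variable between letters than the collagens. Their summed level was 2045, 1598, 1633, 332 and 48.0 CPM in control L4 libraries. In overexpressing L4 libraries it was 4721, 3869.8, 5311, 933 and 449.6 CPM, or 2.31 to 9.36 times the control library of the same letter. Letter E gave the largest ratio and had the lowest level in both strains.

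nspd-3 (chrIV:5162826-5163041, - strand) stood at 19.3, 16.5, 22.7, 15.98 and 2.03 CPM in control and 85.4, 41.9, 62.3, 51.3 and 22.1 CPM in overexpressing L4 libraries. Its overexpressing libraries overlapped the control ones through letter E alone. msp-78 (chrIV:9770046-9770429, + strand), a major sperm protein gene, stood at 431, 239.8, 256, 69.9 and 8.15 CPM in control and 1050.2, 758, 910.0, 182 and 87.6 CPM in overexpressing L4 libraries, with differences of 1.29, 1.66, 1.83, 1.38 and 3.35. The other major sperm protein genes of the set lay at like levels. msp-40 stood at 373, 332, 277, 119.4 and 20.1 CPM in control and 983, 759.6, 765, 369 and 198 CPM in overexpressing L4 libraries. msp-3 stood at 295, 283, 260.4, 49.9 and 7.89 CPM in control and 707, 587, 903, 154 and 76.98 CPM in overexpressing L4 libraries. In all 3 msp genes the control library of letter E was the lowest of the 10 L4 libraries.

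The ssq genes, a sperm-specific family, were also lowest in letters D and E of each strain. ssq-1 stood at 716, 586, 662, 59.9 and 6.90 CPM in control and 1451, 1277, 2042, 144 and 51.2 CPM in overexpressing L4 libraries. ssq-4 stood at 177, 114.998, 127, 9.06 and 1.42 CPM in control and 352, 361, 501, 17.2 and 6.43 CPM in overexpressing L4 libraries. ssq-3 stood at 32.6, 23.8, 26.6, 6.54 and 1.47 CPM in control and 85.5, 81.7, 118.8, 12.4 and 5.81 CPM in overexpressing L4 libraries. All 3 thus had overexpressing libraries of letters D and E below the control libraries of letters A to C. ssp-9, of another sperm-specific family, was rare, at 0.129 to 1.70 CPM in control and 1.08 to 8.20 CPM in overexpressing L4 libraries. Over the families, 12 of 28 msp genes and 4 of 4 ssq genes with a mean of at least 20 counts were higher in all 5 letters at L4, and none was lower in all 5. Of the other families of this set it held for 5 of 10 ssp genes and 2 of 9 nspd genes, beside 20.3% of all genes, and the median difference of the nspd genes was -0.077. These counts include genes that the rule chose so, 3 of msp, 3 of ssq, 1 of ssp and 1 of nspd. The counts are thus not independent of the choice. The 31 msp genes of the table are close copies of each other, so reads may be shared between them and the value of each is uncertain.

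Some markers of sperm and of oocytes were also higher in the overexpressing library of all 5 letters at L4, as were 20.3% of all genes. The list of 10 sperm markers, which includes msp-3 and 5 other msp genes, had 4 of 8 measured genes higher in all 5 letters and a median difference of 1.08, with summed levels of 19.4 to 929 CPM in control and 200.02 to 1787 CPM in overexpressing libraries. Of its other genes msp-77 and msp-49 were lower in letters A to C and higher in D and E. The list of 10 oocyte and eggshell markers had 5 of 9 measured genes higher in all 5 letters and a median difference of 0.76. Its summed level was 2731, 779, 2169, 16.24 and 6.25 CPM in control L4 libraries and 2566, 2467, 2179, 77.4 and 43.4 CPM in overexpressing L4 libraries. This sum was thus far higher in letters A to C than in letters D and E, the same split of letters as in the collagens. In letters A to C most of the sum came from perm-2 and perm-4, at 932 and 1760 CPM in control letter A. Not every gene of the list had this split, as chs-1 stood at 1.58 CPM in control letter B and 3.22 CPM in D. These genes are named after their values were seen. The germline list had 4 of 9 measured genes higher in all 5 letters with a median difference of 0.10, and the intestine list had 0 of 12 with 0.27. The neuron list had 2 of 7, the body muscle and pharynx lists 0 of 10 and 0 of 4, and the hypodermis and cuticle list 1 of 10, which was col-19. None of these lists had a defining gene at 0 in every library except msp-113 of the sperm list, and the part of these tissues in the differences of the 60 genes was not tested.

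In control larvae letters A to C and letters D and E differed by more than the strains did for the collagens and the sperm and nspd genes, whose strain differences had medians of 1.16 to 4.01 and 1.25 to 2.98 by letter. The 6 collagens were higher in A to C than in D and E of the control larvae by a median of 8.08 on the log2 scale and the 8 sperm and nspd genes by 3.25, while the 46 other genes differed by 0.36 and all 7373 genes by -0.41. In overexpressing larvae the medians were 6.16, 2.77 and -0.075 for the 3 sets. The labels give no batch, so the letter sets are described from the counts alone.

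T19H12.6 (chrV:4874233-4877687, - strand), at rank 2, had the narrowest range among control L4 libraries of the 60 genes. It stood at 1.34, 1.22, 1.28, 1.07 and 1.16 CPM in control L4 libraries and 7.26, 6.73, 7.25, 11.96 and 13.0 CPM in overexpressing L4 libraries, and the groups did not overlap. That range was 0.22 on the log2 scale, against a median of 2.91 over the 60 genes, and the ratio of the group medians was 5.97. At Day 13 it held 3 counts or fewer in every library, at up to 0.143 CPM in control and 0.0424 CPM in overexpressing worms, so that a strain difference was not detectable at this depth. It carries a sequence name only, and overlaps a gene on the opposite strand.

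Of the other genes of the top 12 with sequence names, C45B2.1 (chrX:6086124-6086567, + strand) stood at 7.53, 2.55, 7.25, 0.590 and 0.604 CPM in control and 26.4, 19.7, 34.5, 10.6 and 3.43 CPM in overexpressing L4 libraries. C33F10.12 (chrII:4836303-4837759, - strand) stood at 3.62, 3.09, 1.73, 6.004 and 0.776 CPM in control and 12.46, 11.4, 17.3, 16.19 and 7.66 CPM in overexpressing L4 libraries. C33F10.12 was a gene whose groups did not overlap, whereas the C45B2.1 groups overlapped through letter E. F27C1.1 (chrI:5434805-5435785, + strand) stood at 8.40, 8.81, 9.07, 1.07 and 0 CPM in control and 32.5, 29.7, 32.2, 3.99 and 0.770 CPM in overexpressing L4 libraries. Its differences of 1.89, 1.70, 1.77, 1.51 and 1.35 lay close together on this scale. Its control library of letter E held 0 counts, so the 0.5 CPM added before the log understates the difference there. R09E10.6 (chrIV:10292928-10294130, - strand) stood at 5.19, 4.65, 6.002, 10.9 and 0.259 CPM in control and 16.7, 12.03, 15.1, 39.9 and 21.6 CPM in overexpressing L4 libraries. Its groups did not overlap, and its difference of 4.87 in letter E came from a control library at 0.259 CPM. C39D10.7 (chrX:7907966-7913930, - strand) stood at 5.50, 1.85, 2.01, 2.09 and 0.172 CPM in control and 22.2, 6.67, 8.38, 7.16 and 2.39 CPM in overexpressing L4 libraries, with differences of 1.92, 1.61, 1.82, 1.56 and 2.102 that varied little between letters on this scale. Its control library of letter E lay below the 0.5 CPM added before the log, so the difference there is understated.

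The yolk gene vit-4 and the uterine gene ule-4 had the steep difference between letters seen in the collagens. vit-4 (chrX:3558769-3563965, - strand) stood at 663, 76.1, 315, 0.482 and 0.690 CPM in control L4 libraries and 1632, 968, 717, 21.9 and 10.9 CPM in overexpressing L4 libraries. Its overexpressing level was above control by 1.30, 3.66, 1.18, 4.51 and 3.25 in letters A to E. Of all genes 20.3% were higher in all 5 letters at L4. All 6 vit genes were measured, and 5 of them were higher in all 5 letters, vit-4 by the rule. The exception, vit-2, was lower in letters A and C and higher in B, D and E, and a marker of the intestine list as well. ule-4 (chrIV:13646396-13647658, - strand) stood at 11.3, 9.05, 11.2, 0.161 and 0.0431 CPM in control and 44.0, 58.4, 42.4, 3.84 and 0.886 CPM in overexpressing L4 libraries. In letters D and E the control libraries of ule-4 held 3 and 1 counts, at the floor, and it overlaps other genes on both strands, so reads could belong to them.

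**Figure D3:**
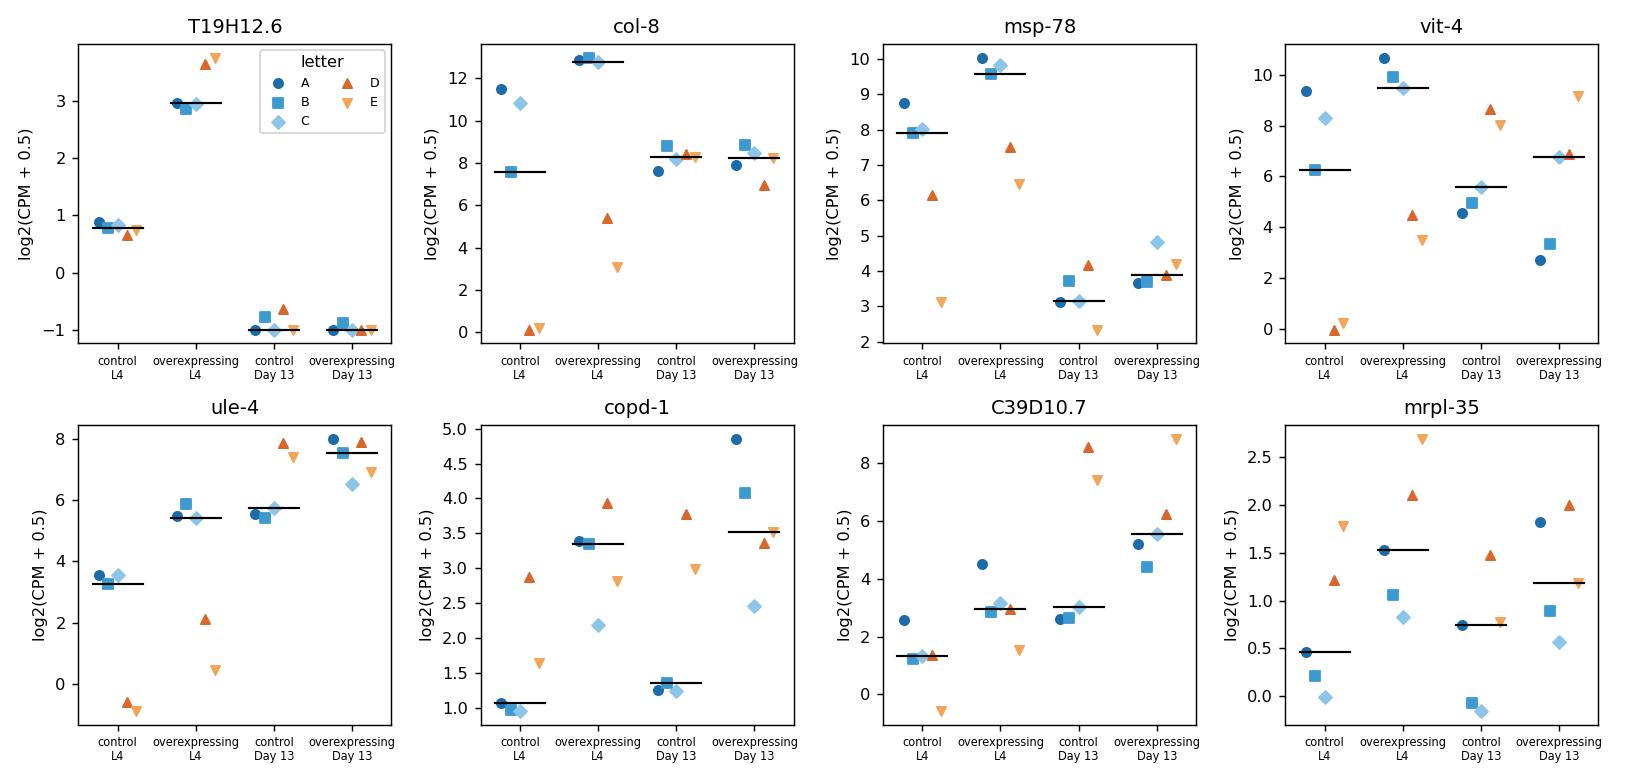
Levels of 8 of the 60 genes, as log2(CPM + 0.5), in each of the 20 libraries, with bars at the group medians; the vertical axes differ. T19H12.6 separates the L4 groups in every letter and stands at 0.143 CPM or less at Day 13, whereas col-8 and vit-4 differ more between letters than between strains.

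copd-1 (chrIII:6622700-6624972, - strand), the delta subunit of the coatomer of vesicle transport, stood at 1.59, 1.46, 1.44, 6.86 and 2.63 CPM in control and 9.98, 9.72, 4.06, 14.8 and 6.59 CPM in overexpressing L4 libraries. F20H11.4 (chrIII:6608622-6610455, + strand), 12244 bases from copd-1, stood at 2.77, 3.67, 2.46, 2.57 and 0.216 CPM in control and 7.44, 7.67, 11.4, 5.57 and 0.924 CPM in overexpressing L4 libraries. Letters A to C of copd-1 were well separated between strains, whereas control letter D lay above overexpressing letters C and E. him-18 (chrIII:4712580-4715188, - strand), the homolog of the nuclease scaffold SLX4 that resolves recombination intermediates, stood at 1.67, 0.681, 0.898, 7.61 and 0.517 CPM in control and 5.17, 3.58, 3.59, 15.8 and 5.24 CPM in overexpressing L4 libraries. msh-2 (chrI:3694296-3697551, - strand), a mismatch repair gene, stood at 1.26, 0.414, 0.662, 2.41 and 1.08 CPM in control and 3.32, 3.21, 2.31, 4.85 and 4.43 CPM in overexpressing L4 libraries. In both repair genes the control library of letter D was the highest of its group and overlapped the overexpressing group.

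tmem-258, whose human homolog is a subunit of the oligosaccharyltransferase, ran over 1.23 to 3.15 CPM in control and 4.36 to 7.35 CPM in overexpressing L4 libraries, without overlap. tofu-2, a factor for piRNA production 11925 bases away on the opposite strand, ran over 0.496 to 3.22 CPM and 1.31 to 11.7 CPM, with overlap. Y111B2A.2 and herd-1 lie 107 bases apart on the same strand, and their levels ran in parallel. Y111B2A.2 stood at 5.80, 2.53, 2.84, 4.07 and 3.02 CPM in control and 14.1, 8.60, 11.7, 12.01 and 16.1 CPM in overexpressing L4 libraries. herd-1 stood at 7.71, 4.06, 4.75, 5.41 and 4.10 CPM in control and 14.9, 9.38, 12.8, 12.8 and 17.5 CPM in overexpressing L4 libraries. Neither gene's groups overlapped. Whether reads of this pair were shared could not be told from the counts. Chosen after their values were seen, the mitochondrial ribosomal protein genes mrpl-35 and mrpl-36 ran over 0.496 to 2.93 CPM and 1.30 to 6.43 CPM in control and 1.28 to 5.97 CPM and 4.39 to 26.9 CPM in overexpressing L4 libraries. Of 37 mrpl genes with a mean of at least 20 counts, 11 were higher in all 5 letters at L4 and 0 lower. The 11 include mrpl-35 and mrpl-36 by the rule, and 20.3% of all genes were higher in all 5 letters.

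F17E9.5, C44B7.5, D1054.10 and ZK813.7 are described with the Day 13 values, and the last 3 had L4 medians of 1.12, 1.98 and 2.58 CPM in control and 9.32, 13.6 and 88.7 CPM in overexpressing libraries, with overlap. Of the other 24 genes, named here to account for every gene, dyrb-1 is a roadblock light chain of dynein, rpt-4 an ATPase of the proteasome cap, far-8 a fatty acid and retinol binding protein gene and cest-33 a carboxylesterase gene. dyrb-1 had medians of 1.19 CPM in control and 3.85 CPM in overexpressing L4 libraries, without overlap. rpt-4 had medians of 1.87 and 5.38 CPM, cest-33 of 0.899 and 2.93 CPM, and far-8 of 0.334 and 2.81 CPM, with overlap in each. pqn-75 and gipc-2 had medians of 7.18 and 2.60 CPM in control and 18.6 and 7.08 CPM in overexpressing L4 libraries, and the groups of neither overlapped. The other 18 have sequence names only, and their control L4 medians ran from 0.189 CPM for C34F11.2 to 14.1 CPM for K05F1.9. Among them C17F3.1, F10E9.2 and F26F4.2 had groups that did not overlap, with medians of 6.57, 1.19 and 0.608 CPM in control and 24.4, 3.61 and 2.69 CPM in overexpressing L4 libraries. The groups of the remaining 15, D1086.10, T05A7.6, F36H12.5, Y37D8A.2, Y54G2A.13, Y53F4B.19, W09D6.4, T05F1.8, K05F1.9, K04H4.5, F25H5.8, F11C7.2, T27C10.8, Y47G6A.26 and C34F11.2, overlapped. Their medians of the 5 L4 differences ran from 1.04 for T27C10.8 to 1.90 for F25H5.8.

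In the genome the 60 genes were spread over all 6 chromosomes, with 15 on chromosome IV, 14 on III, 10 on II, 8 on X, 7 on I and 6 on V. The share of all 7373 genes was 17.6% on IV and 17.8% on III, against 25.0% and 23.3% of the 60 genes, and on X it was 9.87% against 13.3%. Within 20 kb of another of the 60 lay 6 pairs: the col-179 and col-178 pair, C33F10.12 and msp-40 at 10505 bases, ssp-9 and ssq-4 at 16664 bases, and the copd-1, Y111B2A.2 and tmem-258 pairs given above. A gene on the opposite strand overlapped 19 of the 60, col-179, T19H12.6, col-8, ule-4, F27C1.1, R09E10.6, vit-4, copd-1, him-18, ssq-4, tmem-258 and col-101 among those described so far, and 2 overlapped a gene on the same strand. The use of strand in counting is not given in the sources used here, so reads from overlapping genes cannot be told apart for these.

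The Day 13 worms show whether a strain difference was present in old adults of the same lines. The labels state that the 5 libraries of a group were biological replicates, and p-values set the strain difference against the spread between them. In the fit without block that spread includes the split between letters A to C and letters D and E. With 1 line per strain, the spread between lines was not measured. No gene of the 60 was called at Day 13 by edgeR's quasi-likelihood test with Benjamini-Hochberg adjustment over 8544 genes at a false discovery rate of 10%, and 13 of the 60 had too few counts to be tested. The test called 1 gene, elt-2 itself, or 0.0117% of genes tested, and with the replicate block for the letter it called 0. Among the 47 of the 60 that were tested the smallest adjusted p was 0.315. At an unadjusted p under 0.05 there were 6 of these 47 genes, all higher in overexpressing worms, against 3.31% of genes tested higher at that level. These were F10E9.2, copd-1, mrpl-35, ule-4, F25H5.8 and msh-2, of which F10E9.2, mrpl-35 and F25H5.8 were named after their values were seen. The 13 without a test were T19H12.6, C45B2.1, T05A7.6, Y53F4B.19, W09D6.4, gipc-2, ssp-9, K04H4.5, F11C7.2, F26F4.2, T27C10.8, Y47G6A.26 and C34F11.2, and they are counted in all counts over the 60 below.

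F10E9.2 had a log2 change of 1.78 ± 0.39 (SE, adjusted p = 0.315). copd-1 had a log2 change of 1.74 ± 0.48 (SE, adjusted p = 0.315), and mrpl-35 a log2 change of 1.05 ± 0.41 (SE, adjusted p = 0.322). None of these passed the adjusted threshold. ule-4 had a log2 change of 1.02 ± 0.44 (SE, adjusted p = 0.345), F25H5.8 a log2 change of 0.91 ± 0.40 (SE, adjusted p = 0.349), and msh-2 a log2 change of 1.07 ± 0.49 (SE, adjusted p = 0.379). DESeq2 on the same counts called 741 genes, among them 4 of the 47 tested genes of the 60 (F10E9.2, copd-1, ule-4 and F25H5.8), all higher. It called 1.86% of all genes tested higher and 6.81% lower. The median log2 change over the 47 genes tested was 0.48, beside 0.034 over all genes tested, which describes genes that passed the filter on low counts and is no test of the set.

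Counted by letter over all 60 genes, those higher in the overexpressing Day 13 library numbered 46 in letter A, 41 in B, 55 in C, 11 in D and 37 in E. The shares of all 7298 genes with a mean of at least 20 counts at Day 13 were 68.2%, 62.1%, 56.7%, 14.2% and 40.7%. Of the 60, 41 had a mean of at least 20 counts at Day 13 as these genes had, and of the 41 there were 35, 29, 38, 6 and 23 higher, in letter D close to the background share. The median difference of the 60 was 0.56, 0.37, 0.58, -0.71 and 0.36 in letters A to E, beside 0.75, 0.34, 0.13, -0.65 and -0.27 over all genes, so it lay below that of all genes in letters A and D and above it in B, C and E. With totals scaled by TMM the counts were 32, 34, 53, 22 and 51 of 60, beside shares of all genes between 49.1% and 61.5%, and the count in letter D was then below its background. Letter D gave the smallest of the 5 Day 13 differences for 42 of the 60 genes. By number of letters, 24 of the 60 genes were higher in 4 letters, 21 in 3, 10 in 2, 1 in 1 and 2 in 0, namely col-179 and T19H12.6, the latter with 0 counts in both libraries of 3 letters.

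**Figure D4:**
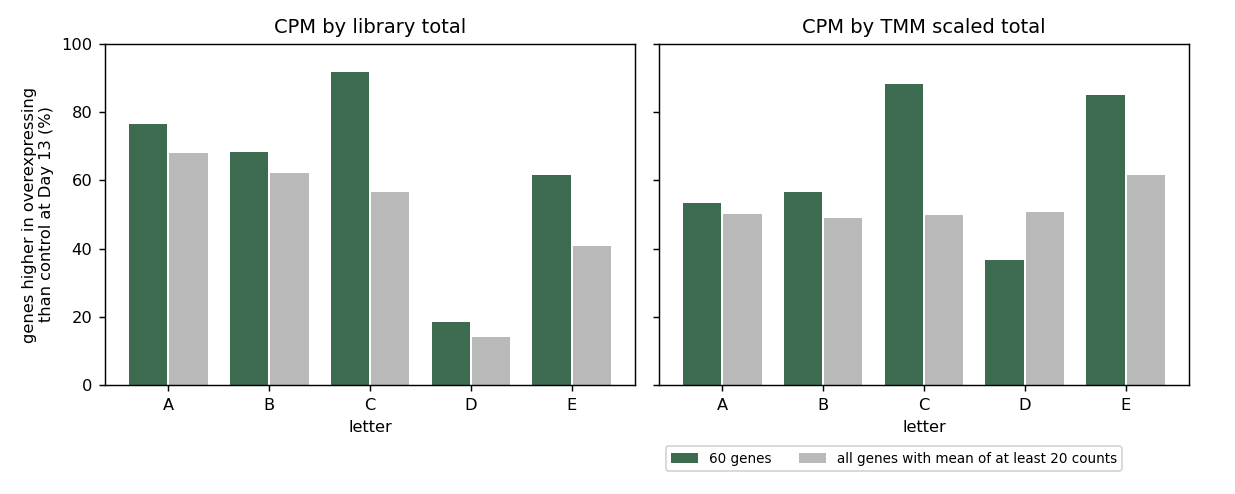
Share of the 60 genes and of all 7298 genes with a mean of at least 20 counts at Day 13 that were higher in the overexpressing than in the control library of each letter, with CPM by library total (left) and by TMM scaled total (right). Letter D has the lowest share of the 60 genes under both scalings, and letter C the highest.

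Genes higher in the overexpressing Day 13 library of all 5 letters numbered 2 of 60, F10E9.2 and mrpl-35, against 1.49% of all genes. With TMM scaled totals they numbered 8 of 60 (ule-4, Y53F4B.19, copd-1, F10E9.2, mrpl-36, far-8, F25H5.8 and mrpl-35) against 6.44%. Lower in all 5 letters was 1 of 60, col-179, against 5.76%, and with TMM 0 of 60 against 3.1%. The Day 13 groups did not overlap for 0 of 60 genes, against 0.123%. Higher in all of letters A to C were 36 of 60, against 48.9% of all genes, and in both letters D and E 6 of 60, against 6.02%. The genes of these shares had a mean of at least 20 counts at Day 13, as 41 of the 60 had. Of the 41, 1 was higher and 1 lower in all 5 letters, or 5 and 0 with TMM scaled totals. Higher in all of letters A to C were 27 of the 41, and in both letters D and E 3. The median of the 5 Day 13 differences had a median of 0.39 over the 60 genes, from -1.61 to 1.78, beside 0.11 over all genes.

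Within letters A to C alone, 47 of the 60 genes were tested. There edgeR's quasi-likelihood test with adjustment called 18 of the 47 higher and 0 lower at Day 13. It called 23.7% of all 8716 genes tested higher and 23.2% lower. Within letters D and E alone it called 0 genes of 8875. The 18 were copd-1, msh-2, him-18, F20H11.4, C39D10.7, ule-4, Y111B2A.2, tmem-258 and tofu-2, and, named after their values were seen, rpt-4, dyrb-1, mrpl-36, cest-33, Y37D8A.2, F10E9.2, ZK813.7, C44B7.5 and F25H5.8. In letters A to C copd-1 had a log2 change of 2.54 with an adjusted p of 0.00369, and msh-2 of 2.097 with 0.00320. In letters D and E the changes were 0.51 and 0.051. No gene of the collagens or of the sperm and nspd genes among the 60 was called in letters A to C. The difference between the letter sets was not tested.

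At Day 13 the levels of the 6 collagens overlapped between strains. Their sum was 1996, 4264, 2188, 3720.5 and 4327 CPM in control and 2355, 6819, 2579.8, 1998 and 2864 CPM in overexpressing Day 13 libraries, 0.537 to 1.60 times control by letter. col-179 stood at 3.90, 2.36, 3.70, 11.3 and 13.5 CPM in control and 2.15, 2.33, 3.46, 4.91 and 10.8 CPM in overexpressing Day 13 libraries, with differences of -0.73, -0.012, -0.085, -1.13 and -0.31. These groups overlapped widely, and the edgeR test gave a log2 change of -0.36 ± 0.42 (SE, adjusted p = 0.804). col-178 stood at 36.0, 60.5, 45.7, 140.2 and 169 CPM in control and 47.6, 54.2, 46.7, 60.1 and 117 CPM in overexpressing libraries. col-8 stood at 198, 445, 292, 347 and 311 CPM in control and 242, 466, 351, 124 and 303 CPM in overexpressing libraries, and col-101 at 94.4, 196, 146, 100.1 and 128 CPM and 55.6, 249.5, 108, 70.9 and 214 CPM. The groups of all 3 overlapped.

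The sperm and nspd genes were at low levels at Day 13 in both strains, 54.5, 88.6, 51.0, 93.6 and 29.0 CPM in sum in control libraries and 86.9, 87.3, 124, 83.7 and 81.0 CPM in overexpressing libraries. msp-78 stood at 8.15, 12.7, 8.36, 17.6 and 4.56 CPM in control and 12.3, 12.4, 27.8, 14.4 and 17.9 CPM in overexpressing libraries, and nspd-3 at 0.472, 0.881, 0.313, 5.29 and 0.930 CPM and 0.716, 0.340, 1.49, 3.25 and 4.45 CPM. The strains overlapped in both genes. The edgeR test gave msp-78 a log2 change of 0.71 ± 0.54 (SE, adjusted p = 0.648), and nspd-3 a log2 change of 0.65 ± 0.67 (SE, adjusted p = 0.771).

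The 5 highest median Day 13 differences among the 60 belonged to copd-1, F20H11.4, msh-2, him-18 and C39D10.7. copd-1 stood at 1.89, 2.07, 1.88, 13.2 and 7.44 CPM in control and 28.4, 16.3, 5.03, 9.81 and 11.0 CPM in overexpressing Day 13 libraries, with differences of 3.60, 2.71, 1.22, -0.40 and 0.54. Its control libraries of letters D and E were well above those of A to C, which the overexpressing libraries were not. msh-2 stood at 1.18, 0.7102, 0.768, 9.86 and 4.93 CPM in control and 8.95, 4.71, 2.51, 3.30 and 8.01 CPM in overexpressing libraries, with differences of 2.49, 2.11, 1.25, -1.45 and 0.65. him-18 stood at 2.95, 1.93, 2.19, 45.1 and 11.7 CPM in control and 14.2, 5.86, 4.16, 7.81 and 38.3 CPM in overexpressing libraries, with differences of 2.09, 1.39, 0.79, -2.46 and 1.67. Both repair genes were thus higher in every letter but D. F20H11.4 stood at 1.36, 1.34, 1.17, 1.14 and 1.67 CPM in control and 6.13, 4.92, 3.18, 0.551 and 1.16 CPM in overexpressing libraries, higher in letters A to C and lower in D and E. The edgeR test gave F20H11.4 a log2 change of 1.22 ± 0.62 (SE, adjusted p = 0.425), and him-18 a log2 change of 0.51 ± 0.68 (SE, adjusted p = 0.842).

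C39D10.7 showed the widest swings among these. It stood at 5.52, 5.68, 7.62, 374 and 171 CPM in control and 36.5, 20.8, 46.7, 74.2 and 455 CPM in overexpressing Day 13 libraries. Letters D and E of control and letter E of overexpressing worms held 171 CPM or more, while the other Day 13 libraries held at most 74.2 CPM. Leaving out the overexpressing library of letter E turned its log2 change from 0.65 to -0.53. C44B7.5, ZK813.7 and D1054.10, chosen after their values were seen, were also highest in those 3 libraries or, for C44B7.5, in letters D and E of both strains, and with C39D10.7 made up most of the sum of the 46 other genes in letters D and E. C44B7.5 stood at 31.3, 30.1, 40.1, 1685 and 889 CPM in control and 146, 72.2, 51.8, 700.0 and 1784 CPM in overexpressing Day 13 libraries. D1054.10 stood at 17.5, 14.0, 14.9, 1422 and 199 CPM in control and 39.1, 26.2, 22.2, 51.5 and 1099 CPM in overexpressing libraries, and its difference of -4.77 in letter D was the lowest of any of the 60 genes. ZK813.7 stood at 49.7, 68.8, 70.02, 562 and 418 CPM in control and 231, 173, 122, 145 and 506 CPM in overexpressing libraries.

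The 5 lowest median Day 13 differences belonged to vit-4, col-101, col-179, F17E9.5 and C45B2.1. vit-4 stood at 22.9, 30.6, 47.7, 397 and 257 CPM in control and 5.999, 9.72, 107, 117 and 577 CPM in overexpressing Day 13 libraries, with differences of -1.85, -1.61, 1.16, -1.76 and 1.16. It was lower in letters A, B and D and higher in C and E, and the edgeR test gave a log2 change of 0.45 ± 0.97 (SE, adjusted p = 0.923), which the replicate block turned to -0.63. The other 5 vit genes were lower at Day 13 in letters A to D, vit-5 for example with differences of -3.10, -3.60, -1.98 and -3.11, and vit-6 was lower in all 5. F17E9.5 (chrIV:8345818-8346546, + strand) stood at 466, 537, 532, 96.7 and 12.9 CPM in control and 849, 982, 978, 224 and 103 CPM in overexpressing L4 libraries. At Day 13 it stood at 27.1, 57.6, 15.98, 32.0 and 8.93 CPM and 20.99, 47.5, 26.7, 15.9 and 26.3 CPM, and its groups overlapped. C45B2.1 stood at 0.354, 0.312, 0.171, 6.65 and 1.95 CPM in control and 0.134, 0.170, 0.353, 0.951 and 6.78 CPM in overexpressing Day 13 libraries and had too few counts to be tested.

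The remaining genes of the top 12 were seen at Day 13 as follows. ule-4 stood at 46.4, 42.5, 53.4, 230.2 and 169 CPM in control and 255, 187, 91.6, 239 and 121 CPM in overexpressing libraries, higher in letters A to D and lower in E. C33F10.12 stood at 0.236, 0.398, 0.256, 1.64 and 0.279 CPM in control and 0.448, 1.40, 0.628, 0.250 and 1.37 CPM in overexpressing libraries. R09E10.6 stood at 0.266, 0.455, 0.114, 5.07 and 0.279 CPM in control and 0.537, 0.424, 0.589, 1.10 and 4.25 CPM in overexpressing libraries. In both of these genes the strain difference of letter D was negative and that of letter E positive, and the groups overlapped. F27C1.1 stood at 0.856, 0.7102, 0.398, 1.22 and 0.186 CPM in control and 0.716, 1.02, 0.471, 0.651 and 0.685 CPM in overexpressing libraries, near the limit of detection in both strains. The edgeR test gave C33F10.12 a log2 change of 0.79 ± 0.58 (SE, adjusted p = 0.630), R09E10.6 a log2 change of 0.48 ± 0.80 (SE, adjusted p = 0.885) and F27C1.1 a log2 change of -0.015 ± 0.50 (SE, adjusted p = 0.996).

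Levels of the 60 genes were lower at Day 13 than at L4 in the median, and more so in overexpressing worms, a contrast that the choice on high overexpressing L4 levels favours and that was not tested. The median change over the 60 genes in control worms was -1.66, -1.20, -1.23, -0.17 and 0.69 in letters A to E, with a mean of -0.71 ± 0.95 (SD, n = 5). In overexpressing worms it was -2.55, -2.23, -2.68, -2.11 and -0.78, with a mean of -2.07 ± 0.76 (SD, n = 5). The medians of all 7815 genes with a mean of at least 20 counts over the 20 libraries averaged 0.72 and 0.48, so the median of all genes went the other way. In letters D and E alone the change of the 60 genes in control worms averaged 0.26, against -1.36 in letters A to C.

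In control worms 13 of the 60 genes were higher at Day 13 in all 5 letters and 17 lower, against 50.7% and 17.2% of all genes. In overexpressing worms 9 were higher in all 5 letters and 32 lower, against 38.2% and 19.5%. All 8 sperm and nspd genes were lower at Day 13 in all 5 letters of overexpressing worms, and 5 of 8 in control worms. Their median change averaged -4.28 ± 1.44 (SD, n = 5) in overexpressing and -3.21 ± 1.88 (SD, n = 5) in control worms. The collagens changed in opposite directions by letter set, with median changes of -3.23, -0.25, -2.22, 6.85 and 7.65 in control and -4.57, -3.41, -3.50, 2.03 and 3.47 in overexpressing worms. In the median they were lower at Day 13 in letters A to C and higher in D and E of both strains. ule-4, C39D10.7, tmem-258, Y111B2A.2 and herd-1 were among the genes higher at Day 13 in all 5 letters of both strains, and T19H12.6 and C33F10.12 among those lower.

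**Figure D5:**
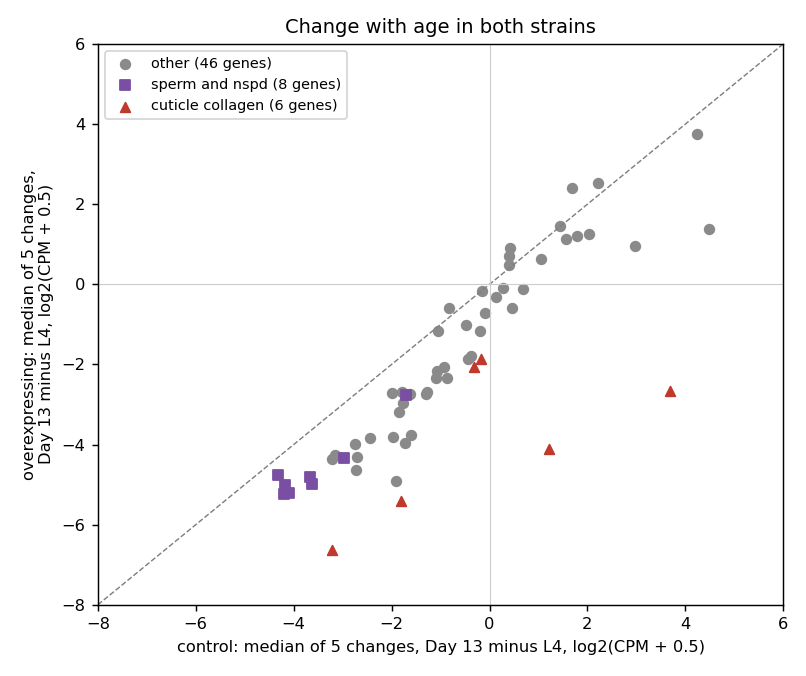
Change from L4 to Day 13 in log2(CPM + 0.5), as the median of the 5 letters, in control (horizontal axis) and overexpressing worms (vertical axis) for each of the 60 genes, with equal change on the dashed line. Most points lie below the line, as the choice of genes with high overexpressing L4 levels favours, and 4 of the 6 collagens, col-101, col-8, col-178 and col-179, lie farthest from it.

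The other genes were compared with the sperm and nspd genes and the collagens across libraries. Over the 20 libraries, which share letters and ages, the correlation of log2(CPM + 0.5) with the summed level of the 8 sperm and nspd genes was above 0.9 for 8 of the 46 other genes, and with that of the 6 collagens for 0 of 46. The 8, chosen after their values were seen, were T05A7.6, Y53F4B.19, F27C1.1, T27C10.8, K05F1.9, F36H12.5, Y54G2A.13 and F17E9.5. The values of r were 0.95 for F27C1.1 and 0.98 for F17E9.5. With the oocyte and eggshell list r was above 0.9 for ule-4 and ZK813.7, at 0.93 and 0.91. The summed level of that list came mostly from perm-2 and perm-4 at Day 13 and in letters A to C at L4. These values are descriptions, since the points share ages, strains and letters, and the L4 libraries among them also chose the genes. The share of all genes with r above 0.9 was not counted. Whether the counts given here exceed that share is therefore not known.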

How the data were processed

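Messenger RNA of whole worms was measured by 3SEQ in 20 libraries, 5 in each of 4 groups of strain and age taken from the sample titles. The authors deposited a table of raw counts per gene, made with Bowtie 0.12.7 per the submitters' processing notes. The genome build, the annotation and the use of strand in counting are not given in the sources used here. The table has 3 further unnamed columns, which were not used. Names and coordinates were taken from the Ensembl annotation of WBcel235, in which 20881 of 21383 identifiers (97.7%) were found.

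The 60 genes and all gene lists were chosen with earlier results of these data known. Levels are counts per 1e+06 library counts (CPM), and differences are of log2(CPM + 0.5) between libraries of the same letter, over genes with a mean of at least 20 counts. This scale understates changes of genes near 0.5 CPM. Day 13 strains were compared with edgeR 4.0.16 (limma 3.58.1, R 4.3.3) on the counts as deposited, with filterByExpr, TMM scaling and a robust quasi-likelihood test. P-values were adjusted by Benjamini-Hochberg over all genes tested, at a false discovery rate of 10%. The L4 difference, which chose the genes, and the change with age, which shares its libraries, were not tested.

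Letters were taken as pairing the libraries. The correlation between strains of deviations from the group means over genes was 0.751, 0.554, 0.652, 0.820 and 0.724 for letters A to E at L4, and 0.100, 0.478, 0.648, 0.464 and 0.199 at Day 13, all above 0.1. A fit with a replicate block for the letter was therefore made beside the unblocked one. Values between libraries of different letters are not given here. The correlations thus cannot tell a pairing by letter from the split between letters A to C and letters D and E. Alternatives were DESeq2 1.42.0, totals without the 3% most highly counted genes (641 genes), no filter on low counts, letters A to C or D and E alone, each library left out in turn, other pseudocounts, count minimums and rankings, and, chosen after seeing the data, letters A, B, C and E. Only the main edgeR fit, without block and over all Day 13 libraries, was tested on simulated data first. The simulated counts held no difference between letters, and the alternative fits were not tested in this way.

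Genes named in full are the 12 highest ranked, any called at Day 13 and the 5 with the highest and the 5 with the lowest median Day 13 difference. By level are named the 5 most abundant at L4, those within 20 kb of another of the 60, those sharing a name stem with at least 2 others, and 3 genes on either side of rank 60. Other genes named are marked as chosen after their values were seen. Marker lists were intestine, body muscle, pharynx, hypodermis and cuticle, neurons, germline, sperm, and oocyte and eggshell, and gene lists were transgene parts, GATA factors, Argonautes and RNAi, intracellular pathogen response, and pathogen and stress response. Depth was 10749795 to 42317549 counts per library. Precision at low levels is limited by counting, and 3 counts equal 0.0709 to 0.279 CPM.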

Additional observations from a re-analysis of the deposited data

Results flagged for a closer look

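In groups of 5 libraries, a library was set aside for a closer look when its gap to the nearest other library exceeded 0.71 of the range of the group. This was the case in 8 of 82 groups checked, and chance gives about 1 in 20. At L4 the control library of letter E was the lowest for nspd-3 (gap over range 0.845) and for F20H11.4 (0.805), and the overexpressing library of letter D was the highest for him-18 (0.754). At Day 13 the control library of letter D was the highest for C33F10.12 (0.814), R09E10.6 (0.7998) and nspd-3 (0.712). The overexpressing Day 13 library of letter E was the highest for col-178 (0.727), and that of letter C for the summed level of the 8 sperm and nspd genes (0.824).

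col-179 was higher in the overexpressing library of all 5 letters at L4, which the choice of genes fixed, and lower in that of all 5 letters at Day 13, with a median difference of -0.31 on the log2 scale. The difference between the ages was not tested.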

How the results depend on the processing

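The list of 60 genes depended on how it was drawn. Of the 60, 39 remained among the 60 highest with a pseudocount of 0.1 CPM, 31 when genes were ranked by the mean difference, 10 when ranked by the difference of group medians, and 36 to 55 when a letter was left out, the fewest without letter D. Genes of the 60 higher in all 5 letters at Day 13, 2 by library totals, were 8 with TMM scaled totals and 8 with totals without the top 3% of genes. In letters A to C alone 36 were higher in all, and in letters D and E alone 6. The control change from L4 to Day 13, -0.71 over 5 letters, was 0.26 in letters D and E alone.

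The 1 gene called at Day 13 became 0 with the replicate block, 741 with DESeq2, 2 with totals without the top 3% of genes, 2 with no filter on low counts, 4095 in letters A to C alone, 0 in letters D and E alone and 0 in letters A, B, C and E. With 1 library left out it was 0 to 662, the latter without the control library of letter E. Called genes of the 60, 0 in the fit without block, were 4 with DESeq2, 18 in letters A to C alone and 0 to 2 with 1 library left out. The replicate block called 0 of the 60 and changed no other call. The median log2 change of the tested genes of the 60 kept its sign, at 0.11 in letters D and E alone and 0.33 to 0.91 with 1 library left out. The causes were not tested.

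Day 13 log2 changes of 9 named genes changed sign in some fits. None was called over all 5 letters, and C39D10.7, him-18 and F20H11.4 were called in letters A to C alone. With 1 library left out they ran from -0.53 to 1.74 for C39D10.7, -0.47 to 0.25 for col-8, -0.35 to 0.20 for F27C1.1, -0.30 to 1.77 for R09E10.6, -0.11 to 1.52 for him-18, -0.62 to 0.94 for vit-4, -0.55 to 0.31 for col-101 and -0.68 to 0.46 for F17E9.5. With the replicate block they were 0.12 for F27C1.1, -0.63 for vit-4 and 0.093 for F17E9.5. With totals without the top 3% of genes they were 0.17 for col-8, 0.27 for F27C1.1, 0.22 for col-101 and 0.10 for F17E9.5. In letters D and E alone they were -0.27 for F20H11.4, 0.74 for col-101 and 0.52 for F17E9.5, and without letter D 0.016 for F27C1.1. Depth limits the genes below 1 CPM, where 3 counts equal up to 0.279 CPM.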

Other observations

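Gene lists outside the 60 gave the following values at L4, among genes with a mean of at least 20 counts. Of all such genes 20.3% were higher in the overexpressing library of all 5 letters. Of the transgene parts list 2 of 3 genes, elt-2 and unc-119, were higher in the overexpressing library of all 5 letters. Of the GATA factor list this held for 1 of 5, elt-2. Of the Argonaute and RNA interference list it held for 3 of 9, with a median difference of 0.34. Of the intracellular pathogen response list 0 of 2 were higher and 1 lower in all 5 letters, and of the pathogen and stress response list 2 of 7 were higher and 1 lower.

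Families of the 60 genes differed at Day 13 in how many members with a mean of at least 20 counts went one way in all 5 letters. Of 68 col genes 0 were higher and 16 lower, of 23 msp genes 0 were higher and 0 lower, of 6 vit genes 0 were higher and 1 lower, and of 34 mrpl genes 3 were higher and 0 lower, beside 1.49% higher and 5.76% lower over all genes.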
